A study of Mus musculus with 8 samples.

Results

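The genes described here make cholesterol and fatty acids or sense and move sterols in the cell. They were chosen by name, as a list of 31 mouse genes, and a probe set belonged to the list where the platform annotation gave it exactly 1 of these genes. That found 66 of the 34945 single-gene probe sets on the array and 30 of the 31 genes, out of 18193 genes in all. Acat2 was the member without such a probe set. By role the list holds 7 genes of the mevalonate steps, 3 of the steps from squalene to lanosterol, 8 of the steps from lanosterol to cholesterol, 5 of sterol sensing, 4 of sterol transport and 4 of fatty acid synthesis.

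Cells build cholesterol from acetyl units through mevalonate, squalene and lanosterol. When membrane sterol falls, Scap carries the SREBP transcription factors (products of Srebf1 and Srebf2) out of the endoplasmic reticulum, and they switch on most enzymes of the route together, whereas the Insig proteins hold Scap back when sterol is plentiful. Sterols also bear on Hedgehog signalling: mature Shh carries a cholesterol group, Smo binds sterols, and Dhcr7 uses up a sterol intermediate near the end of the route. Cyclopamine is a plant steroidal alkaloid that binds Smo.

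RNA came from mandibular molar tooth germs of embryos of ICR mice, an outbred stock. The dam had a single intraperitoneal injection on embryonic day 14, and the germs were taken 24 hours later. The injections were 5E1, an IgG1 antibody against Shh (10 mg/kg), 40-1a, an IgG1 antibody against β-galactosidase (10 mg/kg), cyclopamine (10 mg/kg), or 1 ml of PBS. The labels do not give a vehicle for cyclopamine. Each group had 2 arrays, called biological replicates in the labels, which do not say whether their embryos came from separate litters, and p-values here reflect only how far these samples spread. The signal is the linear MAS5 intensity of a probe set, and a difference is given on the log2(signal + 9) scale.

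The arrays did not fall together by injection. Clustered on the tested genes other than the members, replicate 1 of 5E1, 40-1a and PBS formed cluster 1, replicate 2 of 5E1, 40-1a and cyclopamine formed cluster 2, and cyclopamine replicate 1 with PBS replicate 2 formed cluster 3. Epithelial markers were present on every array, with a summed signal of 42494 to 70414 over 9 genes, as were dental mesenchyme markers, with 9913 to 34236 over 9 genes. Suprabasal oral epithelium (13455 to 69835 over 10 genes) and skeletal muscle (1371 to 14762 over 10 genes) varied more. Of 8 adipocyte markers only Fabp4 (64.0 to 275) and Lpl (291 to 1315) passed the filter on low signals. Of those left out, Cidec, Lep, Adipoq and Pparg reached at most 58.6 on any array, Plin4 95.5 and Retn 118.7. The 18S rRNA signal was 2548 on cyclopamine replicate 1 and 52.9 to 447.6 elsewhere, and that array had an actin 3′ to 5′ ratio of 1.50 against 1.18 to 1.25. The Hedgehog target Ptch1 differed by -2.31 (SE 0.30) and Gli1 by -2.22 (SE 0.40) between 5E1 and 40-1a. Hhip, a Hedgehog-binding antagonist that the pathway induces, differed by -1.58 (SE 0.46). Between cyclopamine and PBS the differences were -0.27 (SE 0.30) for Ptch1, 0.08 (SE 0.40) for Gli1 and -0.63 (SE 0.46) for Hhip. None of these passed in the main fit, with a lowest limma adjusted p of 0.969 (Ptch1 after 5E1). With the replicate number as a block, Ptch1 passed after 5E1 (limma adjusted p = 0.00519).

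The regions before the members' starts were searched for short motifs, which the choice of the list did not use. The 250 bases before the start, from RefSeq (build GRCm38.p6), could be used for 24 of the 31 genes. Letters searched on both strands were CCAAT, the NF-Y box, a partner of SREBP, TCACNCCAC, a sterol regulatory element, and CACGTG, an E-box. No searched motif contains another, and neighbouring matches may share bases. CCAAT was found in 20 of the 24 members (83.3%), against 39.5% of 17492 protein-coding genes. CACGTG was found in 6 members (25%), against 7.61%, and TCACNCCAC in 1 (4.17%), against 1.20%. A gene with several listed starts was counted where any of its windows held the letters, among members and protein-coding genes alike. Insig2, Pmvk, Dhcr7 and Srebf1 held CCAAT at only some of their starts. The protein-coding genes were not limited to those tested on the arrays. A match is a description of these windows, and its binding was not measured. The sequences below are of Hmgcs1 (chr13:119690101-119690350, plus strand), the only one of these 24 with the sterol element, and of Fasn (chr11:120824548-120824797, minus strand), Insig1 (chr5:28071162-28071411, plus strand), Cyp51 (chr5:4104698-4104947, minus strand) and Scap (chr9:110333106-110333355, plus strand), the 4 members with the smallest p after cyclopamine. Each runs 5′ to 3′ on its gene's strand, with matches to the searched letters or their reverse complement in capitals.
Hmgcs1: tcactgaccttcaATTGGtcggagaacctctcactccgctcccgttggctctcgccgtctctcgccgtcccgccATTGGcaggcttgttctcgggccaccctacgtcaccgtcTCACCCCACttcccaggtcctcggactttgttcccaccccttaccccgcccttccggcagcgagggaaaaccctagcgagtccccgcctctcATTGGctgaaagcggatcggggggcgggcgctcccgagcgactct
Fasn: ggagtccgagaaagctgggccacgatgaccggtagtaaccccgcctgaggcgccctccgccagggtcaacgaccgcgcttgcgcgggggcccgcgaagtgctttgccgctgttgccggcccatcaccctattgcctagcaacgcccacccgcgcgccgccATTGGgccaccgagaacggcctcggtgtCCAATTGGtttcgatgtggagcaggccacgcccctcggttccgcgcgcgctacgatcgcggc
Insig1: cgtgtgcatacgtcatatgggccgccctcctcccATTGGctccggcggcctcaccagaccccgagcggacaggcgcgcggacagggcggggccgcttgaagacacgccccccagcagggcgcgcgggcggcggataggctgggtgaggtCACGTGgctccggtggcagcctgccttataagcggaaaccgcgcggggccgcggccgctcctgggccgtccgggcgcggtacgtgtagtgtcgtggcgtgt
Cyp51: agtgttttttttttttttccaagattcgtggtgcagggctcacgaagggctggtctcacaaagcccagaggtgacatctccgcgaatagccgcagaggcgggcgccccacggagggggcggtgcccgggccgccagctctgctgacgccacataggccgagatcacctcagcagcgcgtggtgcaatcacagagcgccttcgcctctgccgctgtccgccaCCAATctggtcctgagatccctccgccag
Scap: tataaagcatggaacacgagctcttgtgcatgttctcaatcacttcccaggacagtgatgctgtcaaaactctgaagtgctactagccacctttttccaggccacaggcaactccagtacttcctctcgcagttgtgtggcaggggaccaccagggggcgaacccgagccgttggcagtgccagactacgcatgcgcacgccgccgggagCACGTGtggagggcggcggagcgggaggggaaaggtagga
Hmgcs1 held 3 NF-Y boxes beside the sterol element, which lay 129 to 137 bases before the start. Fasn also held 3 NF-Y boxes, of which 2 share bases. Insig1 held 1 NF-Y box and 1 E-box, and Cyp51 held 1 NF-Y box. Scap held 1 E-box and no NF-Y box, and the window of its other listed start held no match.

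Of the 30 measured genes, all of which passed the filter on low signals, 29 varied by less than 2-fold between their lowest and highest array, as did 70.5% of all genes tested, and 5 members varied by less than 1.25-fold. The median range over the 8 arrays was 0.53 on the log2 scale, against 0.70 over all 13008 genes tested. The median SD between the arrays of a group was 0.21, against 0.25 over all genes. The members' median level was also higher, 10.07 against 9.33, and the part of level in these spreads was not tested. The widest ranges belonged to Npc1 (1.14), Srebf2 (0.95), Mvd (0.94) and Fasn (0.89).

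**Figure D1:**
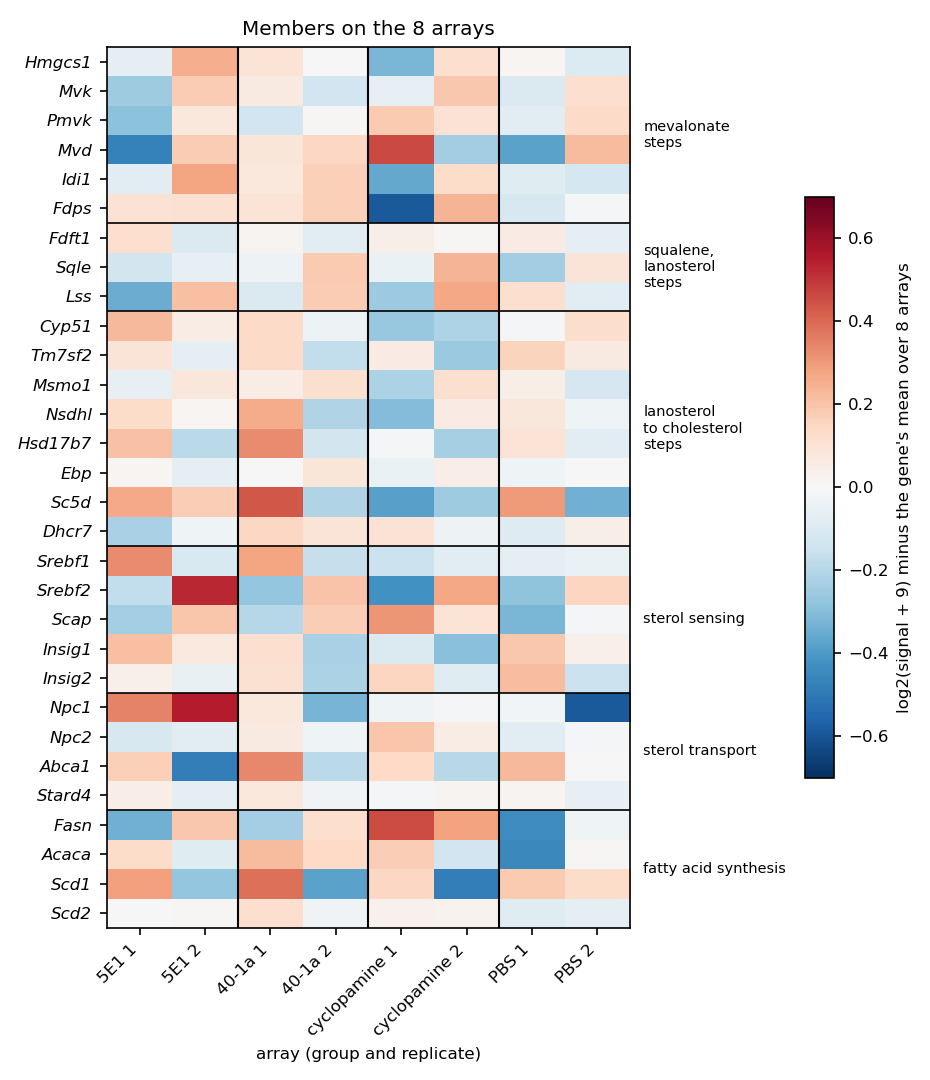
Each row is a member and each column an array, grouped by injection, and the colour is the array's log2(signal + 9) minus the gene's mean over the 8 arrays. Npc1 has the widest range, 1.14, and no column is of 1 colour through all roles.

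The mevalonate steps turn acetyl units into farnesyl diphosphate. Hmgcs1, the synthase that makes HMG-CoA, ran from a signal of 6820.5 (cyclopamine replicate 1) to 10179 (5E1 replicate 2). The kinases Mvk and Pmvk ran from 425 to 578 and from 384 to 536. Mvd, the decarboxylase after them, read 338 and 535 after 5E1, 502 and 523 after 40-1a, 654 and 398 after cyclopamine, and 363 and 553 after PBS. Its replicates of every group but 40-1a lay further apart than any pair of its group means. A further probe set of Mvd, 1448663_s_at, read 380 and 424 after 5E1 and 331 and 279 after 40-1a. That is a difference of 0.39, where the one used differed by -0.26. Idi1, the isopentenyl diphosphate isomerase, read 2152 and 2742 after 5E1, 2383 and 2547 after 40-1a, 1764 and 2477 after cyclopamine, and 2132 and 2076 after PBS. Fdps, which makes farnesyl diphosphate, was 2631 on cyclopamine replicate 1 and between 3659 and 4662 on the other arrays.

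Next come squalene and lanosterol. Fdft1, squalene synthase, stayed between 1936 and 2258. Sqle, the squalene epoxidase, read 2358 and 2476 after 5E1, 2521 and 2933 after 40-1a, 2498 and 3045 after cyclopamine, and 2179.9 and 2747 after PBS. Replicate 2 was the higher array in all 4 groups. Lss, which closes the ring to lanosterol, ran from 404 to 625.

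The last steps remove methyl groups and shift double bonds to give cholesterol. Cyp51, the lanosterol demethylase, read 1338 and 1188 after 5E1, 1256 and 1115 after 40-1a, 950.1 and 983 after cyclopamine, and 1133 and 1247 after PBS. Both cyclopamine arrays were below the other 6. Dhcr7, which makes cholesterol from 7-dehydrocholesterol, read 597 and 686 after 5E1, 775 and 747 after 40-1a, 752 and 683 after cyclopamine, and 657 and 720.4 after PBS. The reductase Tm7sf2 ran from 389 to 522, and Msmo1 and Nsdhl, which act on the methyl groups, from 1390.0 to 1756 and from 1268 to 1882. Hsd17b7, also a reductase, ran from 459 to 682, the isomerase Ebp from 999 to 1111, and the desaturase Sc5d from 376 to 671. Of the 17 enzymes of the whole route, 7 (41.2%) were lowest on cyclopamine replicate 1 and 5 (29.4%) on 5E1 replicate 1, where 13.4% of all genes were lowest on either array. Cyclopamine replicate 1 is the array with the outlying 18S rRNA signal, and the part of RNA quality in this count was not tested.

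Among the sensing genes, Srebf2, whose product favours cholesterol genes, read 958 and 1558 after 5E1, 893 and 1241 after 40-1a, 803 and 1303 after cyclopamine, and 885 and 1196 after PBS. On this probe set replicate 2 lay above replicate 1 in every group, and the groups overlapped. A further probe set of like level, 1452174_at, read 1269 and 1177 after cyclopamine, so that replicate 2 was the lower there. It differed by -0.17 for 5E1 against 40-1a and 0.29 for cyclopamine against PBS, where the one used differed by 0.21 and -0.01. Srebf1, whose product favours fatty acid genes, ran from 1209 to 1707. Scap, the escort of both, read 1752 and 2363 after 5E1, 1794 and 2329.9 after 40-1a, 2565 and 2208 after cyclopamine, and 1656 and 2043 after PBS. Insig1, itself an SREBP target, read 669 and 604 after 5E1, 627 and 491 after 40-1a, 536 and 468 after cyclopamine, and 658 and 592 after PBS. Insig2 ran from 676 to 918.

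The transport genes included the member with the widest range. Npc1, which with Npc2 moves cholesterol out of lysosomes, read 226 and 261 after 5E1, 185 and 138 after 40-1a, 171 and 174 after cyclopamine, and 173 and 113 after PBS. Both 5E1 arrays lay above the other 6. Npc2 read 6462 and 6620.1 after 5E1, 7284 and 6839 after 40-1a, 7976 and 7238 after cyclopamine, and 6603 and 6899 after PBS. Abca1, which exports cholesterol, read 1269 and 805 after 5E1, 1428 and 989 after 40-1a, 1248 and 987 after cyclopamine, and 1326 and 1129.9 after PBS, so that replicate 1 was the higher array throughout. Stard4, a sterol carrier, ran only from 752 to 829.8.

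Among the fatty acid genes, Fasn, the fatty acid synthase, read 1389 and 2004 after 5E1, 1487 and 1909.9 after 40-1a, 2411 and 2134 after cyclopamine, and 1295 and 1719.7 after PBS. Both cyclopamine arrays lay above the other 6. Acaca, the acetyl-CoA carboxylase that feeds it, read 748 and 645 after 5E1, 799 and 754 after 40-1a, 773 and 622 after cyclopamine, and 498 and 689 after PBS. Scd2, a stearoyl-CoA desaturase, read 17263 and 17406 after 5E1, 18796 and 16981 after 40-1a, 17657 and 17569 after cyclopamine, and 16316 and 16509.9 after PBS. Scd1, its paralogue, ran from 424 to 783.

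**Figure D2:**
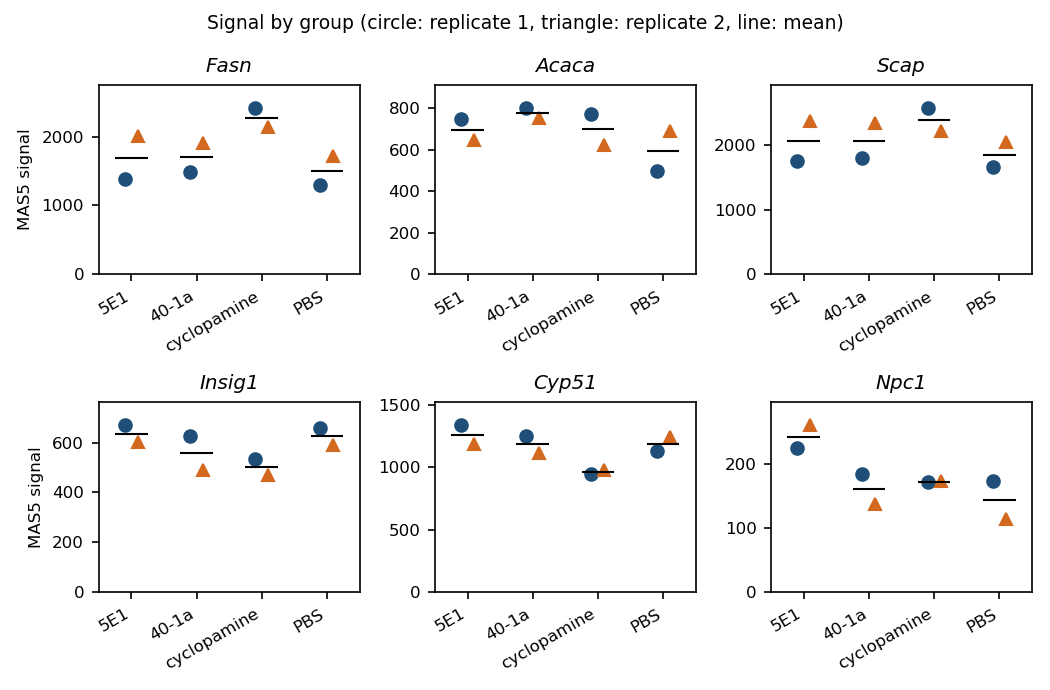
Signal of 6 members by group, on axes that start at 0, with replicate 1 as circles, replicate 2 as triangles and the mean as a line. Both cyclopamine arrays of Fasn (2411 and 2134) lie above the other arrays, and both 5E1 arrays of Npc1 (226 and 261) do so too.

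With 5E1 set against 40-1a, both sides received an antibody and only 1 of them bound the Shh ligand. No member passed: limma called 0 of the 30, and 0% of all 13008 genes, at an adjusted p of 0.05, and 0 members had an unadjusted p under 0.05, against 1.22% of all genes. The largest difference was that of Npc1, 0.58 higher after 5E1 (SE 0.30, 95% interval -0.12 to 1.27, limma adjusted p = 1.00), at 243.3 ± 24.9 against 161.5 ± 33.1 (SD, n = 2). Without 40-1a replicate 2 it was 0.38. Dhcr7 differed by -0.25 (SE 0.18), at 641.3 ± 62.6 against 761.3 ± 20.0, and the other 28 members lay within 1 SE of 0, between -0.26 and 0.21. For 28 of the 30 members the interval lay inside a 2-fold difference in either direction, as for 71.2% of all genes, with Mvd and Npc1 the exceptions.

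The groups did not overlap for 1 member that was higher after 5E1 (Npc1; 8.66% of all genes) and for 4 that were lower (Sqle, Dhcr7, Npc2 and Acaca; 10.8%). With arrays centred on their medians instead, which moved all genes by 0.077 in this comparison, 6 members were higher and 0 lower without overlap, against 12.5% and 5.7% of all genes. Across the roles 13 members were above 0 and 17 below, with a median of -0.02 against -0.01 over all genes, and with median centring 22 were above and 8 below, with a median of 0.06 against 0.06. Within cluster 1 the members' median difference between the antibody arrays was -0.10 and within cluster 2 it was 0.05. Only 13 of 30 members (43.3%) had the same sign in both, against 52.1% of all genes, and Npc1 was 0.28 and 0.88 higher. Of 9 dental mesenchyme markers, 8 were below 0 in this comparison, with a median of -0.37, and the part of that in the members' values was not tested. In bulk tissue, fewer cells of a type and less RNA per cell cannot be told apart.

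Cyclopamine against PBS is the comparison with the Smo antagonist. Again limma called 0 of 30 members and 0% of all genes. Only Fasn had an unadjusted p under 0.05, against 1.58% of all genes. It was 0.60 higher after cyclopamine (SE 0.24, 95% interval 0.05 to 1.15, unadjusted p = 0.037, limma adjusted p = 0.983), at 2273 ± 196 against 1507 ± 300.2, and 0.40 higher without PBS replicate 1. Scap was 0.37 higher (SE 0.22), at 2386 ± 252 against 1849.5 ± 274, Acaca 0.24 (SE 0.22) and Npc2 0.17 (SE 0.12). Without PBS replicate 1 the difference of Acaca was 0.01.

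Lower values after cyclopamine were those of Insig1 (-0.31, SE 0.20), at 502.1 ± 48.1 against 625.0 ± 46.7, of Cyp51 (-0.30, SE 0.16), at 966.5 ± 23.1 against 1190.2 ± 80.6, and of Sc5d (-0.30, SE 0.29). The probe sets of Cyp51 disagreed: 1422533_at read 717 and 621 after cyclopamine and 519 and 596 after PBS, a difference of 0.26, while 1422534_at, at 43.8 to 122, differed by -0.90. Sc5d was at 0.02 without PBS replicate 1. The other 23 members lay within 1 SE of 0, between -0.33 and 0.28. The interval lay inside a 2-fold difference for 28 of 30 members, against 66.6% of all genes, with Fasn and Scd1 the exceptions.

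Without overlap, 4 members were higher after cyclopamine (Scap, Npc2, Fasn and Scd2; 17.8% of all genes) and 4 lower (Cyp51, Tm7sf2, Srebf1 and Insig1; 14.4%). Under median centring, which moved all genes by 0.129 here, 9 were higher and 0 lower, against 25.7% and 7.4%. Above and below 0 stood 15 members each, with a median of -0.00386 against 0.02 over all genes, and with median centring 22 were above and 8 below, with a median of 0.13 against 0.15. By role, 3 of 4 fatty acid genes were above 0 (also with median centring), and 6 of 8 enzymes from lanosterol to cholesterol were below (5 of 8 with median centring). These counts rest on the probe sets used. The further probe sets of Scd2 differed by -0.40 (1415823_at) and -0.87 (1415824_at), where the one used differed by 0.10. That of Acaca, 1427595_at, differed by -0.41, where the one used differed by 0.24. Without cyclopamine replicate 1, 15 members were higher and 7 lower without overlap, where 33.0% and 34.1% of all genes were. The 1 pair of arrays within a cluster, cyclopamine replicate 1 and PBS replicate 2, differed by 0.49 for Fasn, 0.33 for Scap, -0.39 for Cyp51 and -0.14 for Insig1.

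Group means of the tissue markers differed in the same comparison, though the arrays of many markers overlapped. All 9 dental epithelium genes were above 0 (median 0.38), as were 9 of 9 tested suprabasal genes (0.53) and 10 of 10 skeletal muscle genes (1.16), while 8 of 9 dental mesenchyme genes were below 0 (-0.37). Higher without overlap were 5 of the 9 epithelium, 4 of the 9 suprabasal and 4 of the 10 muscle genes, against 17.8% of all genes. Of the mesenchyme genes 0 were lower without overlap, against 14.4%. Summed muscle signal was 3213 and 14762 after cyclopamine and 5373 and 2365 after PBS. Summed suprabasal signal was 25189 and 62509 after cyclopamine and 27627 and 23445 after PBS. For mesenchyme it was 34236 and 15129 after cyclopamine and 28106 and 32710 after PBS. The part of tissue make-up in the members' differences was not tested.

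**Figure D3:**
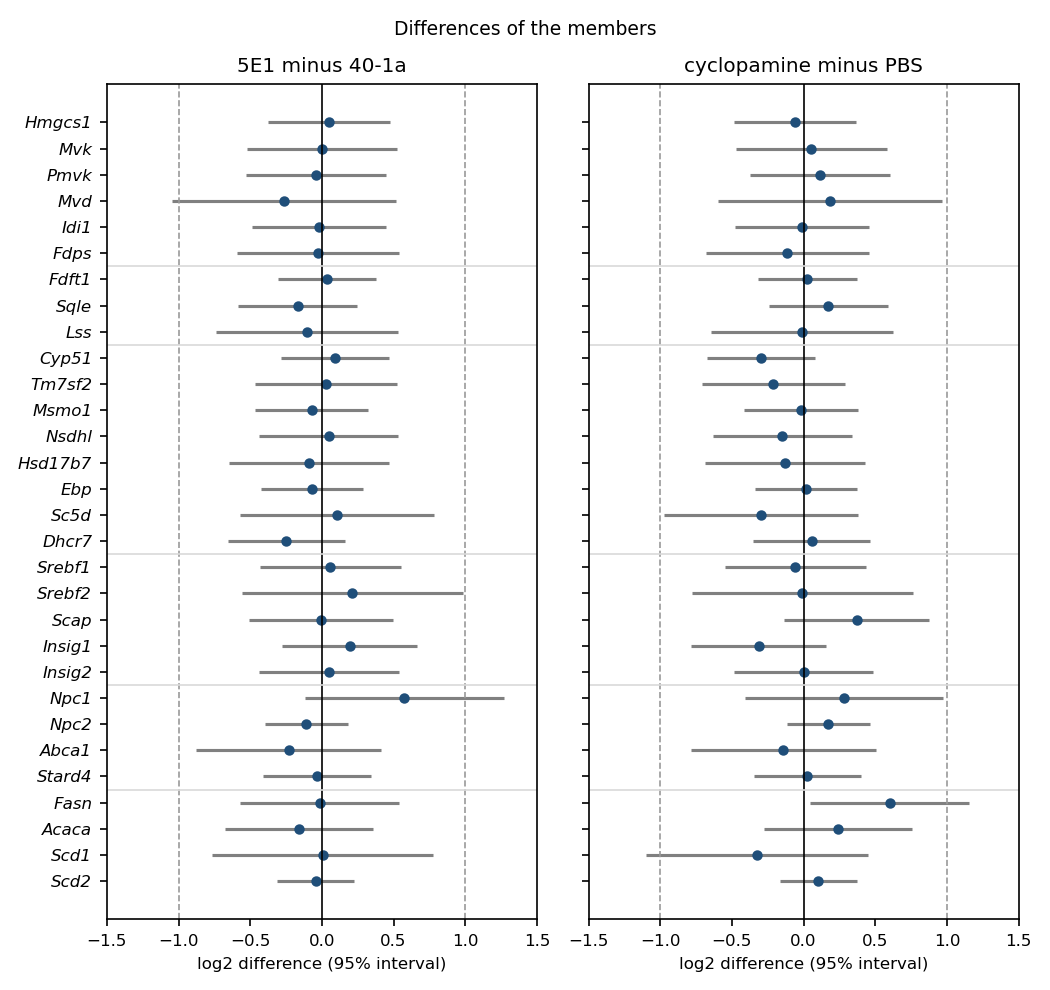
Log2 difference of each member (dot) with its 95% interval (line) for 5E1 minus 40-1a and cyclopamine minus PBS, with dashed lines at a 2-fold difference. In each panel 28 of 30 intervals lie inside the dashed lines, and only that of Fasn after cyclopamine, 0.05 to 1.15, leaves out 0.

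The difference between the effects of the antibody and of cyclopamine, tested as an interaction, passed for 0 of 30 members and 0% of all genes by limma, with 0 members at an unadjusted p under 0.05 against 1.44% of all genes. At least 1 SE from 0 were Fasn at -0.62 (SE 0.34), lower in the antibody comparison, Insig1 at 0.51 (SE 0.29), Acaca at -0.40 (SE 0.31), Cyp51 at 0.39 (SE 0.23), Scap at -0.38 (SE 0.31), Sqle at -0.34 (SE 0.25), Dhcr7 at -0.30 (SE 0.25) and Npc2 at -0.28 (SE 0.18). The other 22 lay within 1 SE of 0, between -0.45 (Mvd, with 0.09 on its further probe set 1448663_s_at) and 0.40 (Sc5d). Intervals here were wider, and 20 of 30 lay inside a 2-fold difference, against 41.2% of all genes. The p-values that missed the threshold do not show that the agents act alike.

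With both blocking agents against both controls, limma called 0 members and 0% of all genes, and 0 members had an unadjusted p under 0.05, against 1.22% of all genes. No member was higher or lower on all 4 arrays of a side, where 0.615% and 0.753% of all genes were. Npc1 differed by 0.43 (SE 0.21, limma adjusted p = 1.00), Fasn by 0.29 (SE 0.17) and Scap by 0.18 (SE 0.15), and the other 27 lay between -0.19 and 0.10. All 30 intervals lay inside a 2-fold difference, against 87.0% of all genes. All 8 enzymes from lanosterol to cholesterol were slightly below 0, between -0.11 and -0.03, against a median of 0.01 over all genes. With median centring, which moved all genes by 0.103, 6 of them were above 0. The 8 enzymes then ran from -0.01 to 0.08, against a median of 0.11 over all genes.

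Both controls were also compared with each other. Between 40-1a and PBS limma called 0 of 30 members and 0% of all genes, with 0 members at an unadjusted p under 0.05 against 0.677% of all genes. Without overlap, 6 members were higher after 40-1a (Idi1, Fdps, Msmo1, Dhcr7, Acaca and Scd2; 9.71% of all genes) and 0 lower (10.8%). Under median centring 0 were higher and 3 lower, against 4.0% and 18.6%. Acaca was 0.40 higher (SE 0.22), Idi1 0.23 (SE 0.20) and Scd2 0.12 (SE 0.12), and without PBS replicate 1 Acaca was 0.17 higher. A further probe set of Idi1, 1423804_a_at, differed by -0.04, at 1384 and 1401 after 40-1a and 1465 and 1395 after PBS. The other 27 members lay between -0.17 and 0.19, and all 30 intervals lay inside a 2-fold difference, against 71.8%. This comparison shares its arrays with those above, so the values are set side by side only.

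Between cluster 2 and cluster 1, with 3 arrays each, 8 members were higher without overlap (Pmvk, Idi1, Fdps, Lss, Msmo1, Srebf2, Scap and Fasn; 24.5% of all genes) and 10 lower (Fdft1, Tm7sf2, Nsdhl, Hsd17b7, Sc5d, Srebf1, Insig1, Insig2, Abca1 and Scd1; 24.2%). As shares of the members these were 26.7% and 33.3%. These clusters were found from the arrays' own values, so no test was made. Above 0 were 6 of 6 mevalonate genes, 3 of 8 from lanosterol to cholesterol, 2 of 5 sensing and 2 of 4 fatty acid genes. The widest values were 0.57 for Srebf2, 0.53 for Fasn, -0.53 for Abca1 and -0.66 for Scd1. Along the same clusters the 9 dental epithelium genes were higher by a mean of 0.66 and the 10 muscle genes by 1.51, and the 9 dental mesenchyme genes were lower, at -1.01. The part of these markers in the members' values was not tested.

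**Figure D4:**
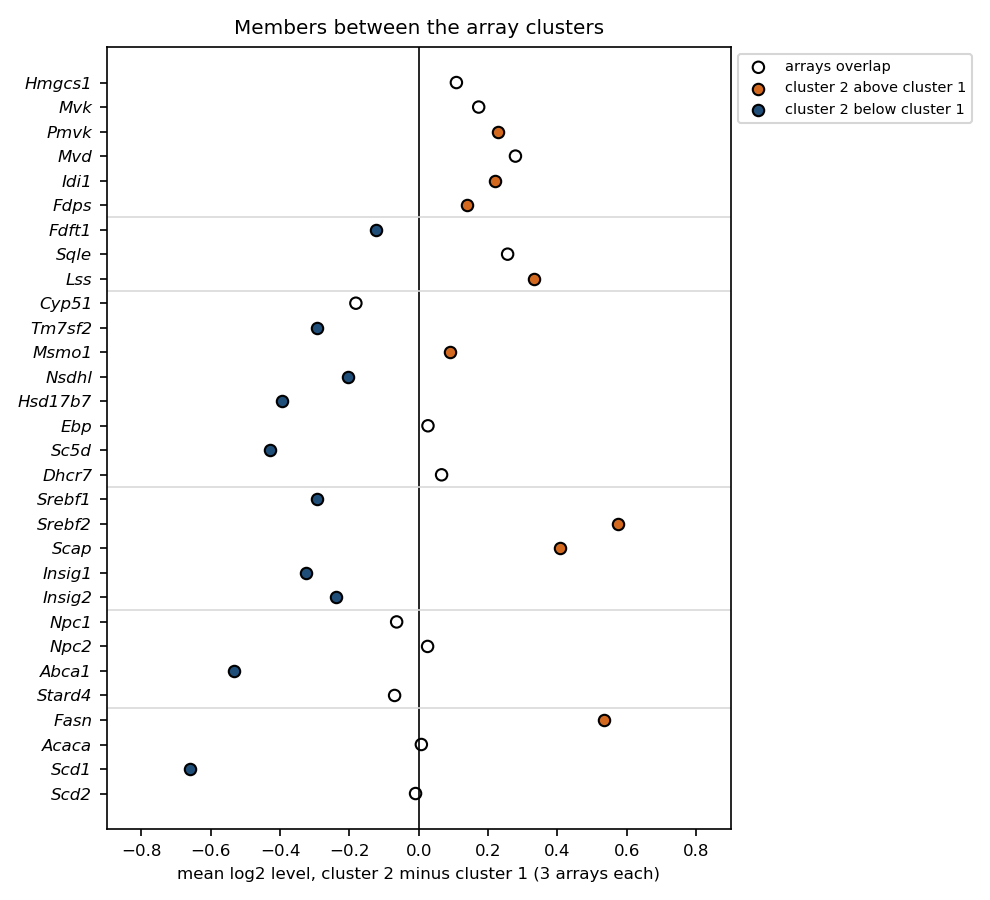
Mean log2 level of each member in array cluster 2 minus that in cluster 1, filled where the 3 arrays of one cluster all lie above those of the other. Srebf2 (0.57) and Fasn (0.53) stand to the right, and Scd1 (-0.66) and Abca1 (-0.53) to the left.

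Correlation among the enzymes over the arrays was close to that of all genes. Among the 17 cholesterol enzymes with a probe set, the median Pearson r over the 8 arrays was -0.01 for the 136 pairs, and 21.3% of pairs had an r over 0.5, against 17.5% of all pairs of tested genes. The points share arrays, scaling and tissue make-up, so this is a description.

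Further probe sets of some members gave other values on 1 array. On cyclopamine replicate 1 the ratio of a further probe set to the one used was the lowest of the 8 arrays for 12 of 29 member probe sets (41.4%) and for 36.7% of 10586 over all genes, against 7.75% to 10.99% on each of the other arrays. The probe set 1415824_at of Scd2 read 673 there and 1802 to 3503 elsewhere, while the one used, 1415822_at, read 17657 and 16316 to 18796. For Stard4, 1429239_a_at read 193 there and 538 to 657 elsewhere. For Abca1, 1421839_at read 58.3 there and 134 to 279 elsewhere, and for Acaca, 1427595_at read 55.1 and 122 to 213. With the mean over all probe sets of a gene, the cyclopamine differences became -0.09 for Acaca and -0.17 for Scap, whose further probe set, 1442885_at, lay below the filter. Under that rule 9 members were lower without overlap in place of 4, and the share of all genes was not counted.

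**Figure D5:**
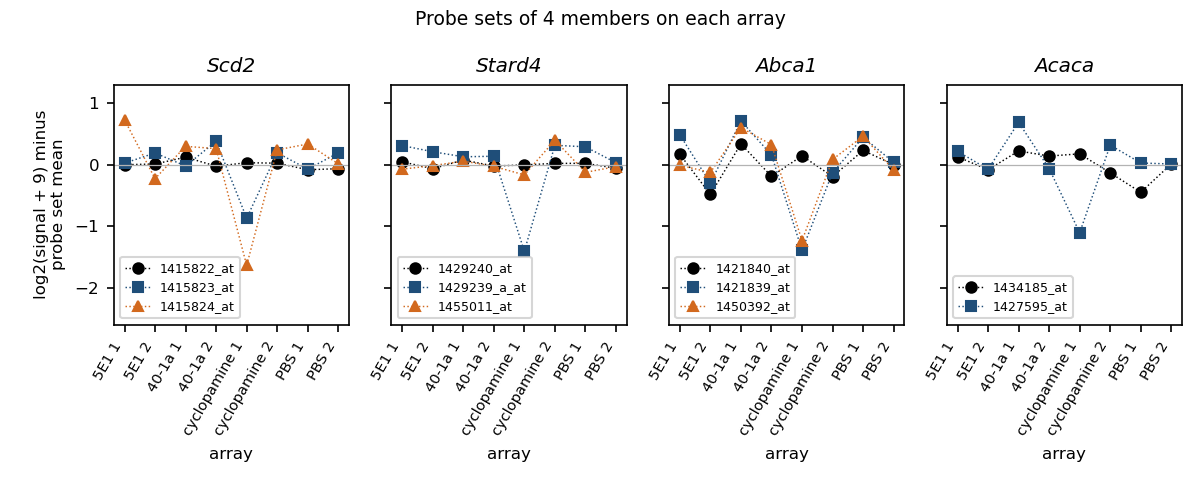
Log2(signal + 9) of each probe set above the filter, minus that probe set's own mean, on the 8 arrays for Scd2, Stard4, Abca1 and Acaca. On cyclopamine replicate 1 at least 1 further probe set of each gene drops while the one used (black circles) does not.

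Other lipid genes were counted beside the members. Of 23 further sterol genes and 18 further genes of fatty acid and glycerolipid synthesis, 16 and 16 were tested. None passed in any of the 5 comparisons, and 0 had an unadjusted p under 0.05 by limma. After 5E1, 15 of the 32 were above 0 and 17 below, with the smallest p for the sterol exporter Abcg1 (-0.23, SE 0.20), Acat1 (-0.12, SE 0.12) and the lipoprotein gene Apoe (-0.26, SE 0.32), and among fatty acid genes for Acly (0.21, SE 0.18), which makes cytosolic acetyl-CoA, Lpin1 (-0.29, SE 0.26) and Gpam (-0.27, SE 0.27). After cyclopamine, 17 were above 0 and 15 below, with the smallest p for Mylip (-0.58, SE 0.44), which marks lipoprotein receptors for degradation, Ggps1 (-0.31, SE 0.24) and Abcg1 (0.16, SE 0.20), and among fatty acid genes for the fatty acid elongase Elovl1 (0.38, SE 0.18), Acacb (1.08, SE 0.70) and Fabp5 (0.20, SE 0.15). Acacb, a carboxylase related to Acaca, had the widest difference of these 32 genes after cyclopamine, and its groups overlapped. Between 40-1a and PBS the smallest p belonged to Abcg1 (0.37, SE 0.20), Tmem97 (0.32, SE 0.23) and Cyp27a1 (-0.69, SE 0.64), and to Lpin1 (0.45, SE 0.26), Elovl1 (0.24, SE 0.18) and Fabp5 (0.18, SE 0.15). For the difference of the effects they were Abcg1 (-0.39, SE 0.28), Ggps1 (0.37, SE 0.34) and Mylip (0.60, SE 0.63), with Acacb (-1.74, SE 1.00), Elovl1 (-0.36, SE 0.25) and Dgat1 (-0.43, SE 0.32). With both agents against both controls they were Mylip (-0.28, SE 0.31), Apoe (-0.19, SE 0.23) and Acat1 (-0.06, SE 0.09), with Elovl1 (0.20, SE 0.13), Fabp5 (0.16, SE 0.11) and Acly (0.17, SE 0.13).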

How the data were processed

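The table deposited by the authors holds 1 linear intensity per probe set and array. MAS5 is the tool that the submitters' processing notes name, and the labelled RNA came from 5 µg of total RNA labelled with biotin per the labels' protocols. Each array's mean signal after trimming 2% at either end was 500, and the values were used at that scale. MAS5's version is not given in the sources used here. Of 45101 probe sets, 64 were controls and 34945 named a single gene. For each of 18193 genes the single-gene probe set with the highest mean was kept, on the scale log2(signal + 9), where 9 is the rounded 10th percentile of all values, and a fold on this scale understates changes of low genes. Genes with a mean below the 40th percentile of probe sets (6.12, a signal of 60.3) were left out, 5185 in all, which left 13008.

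The tests used limma 3.58.1 and R 4.3.3 (lmFit, contrasts.fit and eBayes with trend), as 4 group means fitted to all 8 arrays with 4 residual degrees of freedom, and p-values were adjusted by Benjamini-Hochberg over the 13008 genes, with a threshold of 0.05. The number of arrays limits the precision. The fit was also run on data simulated with independent normal noise for each gene. The simulated arrays had no clusters, so that run gives no support to the results here. All members are named. Those with the smallest p in a comparison (up to 6) or the widest range (4) are given on every array, those within 1 SE of 0 in a comparison by count and range, and other lipid genes by counts and the 3 smallest p of each list. The members and lists were chosen with earlier results of these data known. Alternatives were quantile normalisation, median centring, 2 pseudocounts, 2 filters, 2 rules for probe sets, eBayes without trend, the compared groups alone, the replicate number as a block and leaving out each array.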

Additional observations from a re-analysis of the deposited data

How the results depend on the processing

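The number of members called by limma was 0 in every comparison under every alternative run. The number of all genes called changed only with the replicate block, to 1 for 5E1 against 40-1a (Ptch1, limma adjusted p = 0.00519) and to 1 for both agents against both controls (Ptch1, limma adjusted p = 0.0306). The labels name no pairing. Deviations of like-numbered arrays correlated at 0.32 to 0.59 for 5 of 6 pairs of groups, highest for 5E1 with 40-1a, and at 0.0016 for cyclopamine with PBS. The main fit did not take the numbers as pairs, as the labels name none, although the 5E1 and 40-1a arrays shared such deviations. Without the block Ptch1 had an adjusted p of 0.969 in 5E1 against 40-1a by limma. Of the 23 member differences of at least 1 SE, 235 of 240 values under the alternatives kept their direction. The exceptions were Scd2 in 40-1a against PBS with quantile normalisation (-0.0119) and, with the mean over a gene's probe sets, Scap (-0.167) and Acaca (-0.0866) after cyclopamine, Npc2 in the difference of effects (0.0377) and Scap for both agents (-0.256). Many of these 240 values could not change direction. The filters, the fit without trend, the groups compared alone and the replicate block leave a difference of group means as it is. The rule without probe sets of the x, s and a types kept the probe sets used for these members. Leaving out an array outside the groups compared also leaves their difference as it is. With each array left out, 1 of 184 values changed direction, that of Sc5d after cyclopamine, which ran from -0.614 to 0.0201. The cause was not tested.

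Counts of members without overlap moved under several alternatives. Median centring shifted all genes by 0.077 for 5E1 against 40-1a, -0.084 for 40-1a against PBS, 0.103 for both agents and 0.129 for cyclopamine. For 5E1 against 40-1a the count of lower members was 7 with quantile normalisation (9.9% of all genes) and 0 with median centring (5.7%). The count of higher members was 6 with median centring (12.5%), 3 with the mean of probe sets and 2 without probe sets of the x, s and a types. It was 0 with the 60th percentile filter, which leaves out Npc1. For cyclopamine against PBS the lower count was 2 with quantile normalisation (11.9% of all genes), 0 with median centring (7.4%) and 9 with the mean of probe sets. The higher count was 9 with median centring (25.7%). For 40-1a against PBS median centring gave 0 higher (4.0% of all genes) and 3 lower (18.6%). For both agents the higher count was 1 with quantile normalisation (0.9% of all genes) and 1 with median centring (1%). With each array left out, the counts ran from 1 to 10 higher and 4 to 13 lower for 5E1, from 4 to 15 and 4 to 13 for cyclopamine, from 6 to 17 and 0 to 11 for 40-1a against PBS, and from 0 to 1 higher for both agents. A group left with 1 array is less likely to overlap another. Without cyclopamine replicate 1, 33.0% of all genes were higher and 34.1% lower without overlap after cyclopamine, against 17.8% and 14.4% with it. Shares of all genes were not counted for the other arrays left out, the probe set rules or the 60th percentile filter. An array left alone in its group was assumed to vary like the others.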
